A study of Mus musculus with 4 samples.

Results

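The common gamma chain cytokine receptors were followed here through 8 genes, chosen by their symbols: Il2rg, Il2rb, Il7r, Il4ra, Il21r, Il9r, Il2ra and Il15ra. They are 8 of 55536 genes matched to the annotation, and all 8 passed a filter of a mean count of at least 10 over the libraries. The material was polyA-selected RNA of inflammation-experienced regulatory T cells (Treg). It came from 1 biological replicate of male adult mouse (6 months) of the Foxp3CreERT2 x Rosa26YFP strain. In strains of this kind an inducible Cre is expressed from Foxp3 and a fluorescent reporter sits in Rosa26, so labelling is limited to cells that have expressed Foxp3. The labels also say that the primary cells originate from bone marrow hematopoietic cells, name no inflammatory agent, and give 4 technical replicates of biological replicate 1, called libraries 1 to 4. There was 1 group, so no condition was compared, and p-values measure differences between libraries of the same sample, which may be technical.

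The gamma chain, encoded by Il2rg, is the shared signalling subunit of the receptors for interleukins 2, 4, 7, 9, 15 and 21. It pairs with a ligand-specific chain: IL-2Rβ (Il2rb, shared by interleukins 2 and 15), IL-7Rα (Il7r), IL-4Rα (Il4ra), IL-21R (Il21r) or IL-9R (Il9r). The gamma chain carries the kinase JAK3 and its partners carry JAK1, which activate STAT transcription factors. Il2ra (CD25) and Il15ra encode alpha chains that add affinity for the ligand and have short cytoplasmic parts. Treg depend on interleukin-2, carry high CD25, and are usually separated from other CD4 T cells by their lower CD127, the product of Il7r.

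The chains that signal share an extracellular motif, tryptophan-serine-any-tryptophan-serine (WSXWS), a hallmark of the type I cytokine receptors. A search of the annotated proteins found the motif once in each of Il2rb, Il2rg, Il7r, Il4ra, Il9r and Il21r, and not in Il2ra or Il15ra. Its coding sequence is shown because the reading frames described below part just behind it. Sequences are from GENCODE M21 transcripts on mm10, 5′ to 3′, with the 5 codons of the motif in capitals.
Il2rb: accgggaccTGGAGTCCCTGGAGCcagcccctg
Il2rg: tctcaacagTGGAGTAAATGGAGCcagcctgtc
Il7r: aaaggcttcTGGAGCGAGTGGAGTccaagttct
Il4ra: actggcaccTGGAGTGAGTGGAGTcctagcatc
Il9r: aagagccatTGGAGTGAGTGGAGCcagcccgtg
Il21r: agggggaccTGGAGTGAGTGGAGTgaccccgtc

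The Il2rg stretch lies at chrX:101266206-101266238 and the Il2rb stretch at chr15:78485754-78485786, both on the minus strand. The Il4ra stretch lies at chr7:125571545-125571577 and the Il21r stretch at chr7:125628989-125629021, both on the plus strand, each within a coding exon. Il4ra and Il21r are neighbours on chromosome 7, 23954 bp apart with no annotated gene between them. Il2ra and Il15ra are neighbours on chromosome 2, 12096 bp apart. In each protein, the stretch of 19 residues with the highest mean hydropathy outside the start of the protein was taken as a mark of the membrane-spanning part. After that stretch, 13 residues follow in Il2ra and 39 in Il15ra, against 87 in Il2rg, 177 in Il9r, 196 in Il7r, 271 in Il2rb, 273 in Il21r and 558 in Il4ra.

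The libraries held 9284406, 9341272, 9325603 and 6648343 expected counts, library 4 being the shallowest. All 8 T cell markers and all 9 Treg markers reached 10 TPM (transcript abundance scaled for length and library size) in every library, with summed TPM of 14122 to 15315 and 2902 to 3440.2. Markers of other cells were lower. The 10 B cell markers summed to 97.7 to 215 TPM with none at 0, the 8 NK and innate lymphoid markers to 7.49 to 36.2 and the 8 monocyte and macrophage markers to 8.11 to 32.3. The 7 dendritic markers summed to 2.7 to 5.67 TPM, the 7 granulocyte and mast cell markers to 0.27 to 8.91 (Ly6g at 0 throughout, and Cpa3 at 0 here but at 11 to 25 counts a library in a separate count table made on an older annotation), the 2 CD8 markers to 10.1 to 17.3 and the 4 progenitor markers to 0.57 to 1.2 (Gata2 at 0 throughout). The 8 erythroid markers summed to 1067 TPM in library 1 and 5.03 to 38.6 in the others. In bulk RNA, fewer cells of a type and less RNA per cell cannot be told apart. Libraries 3 and 4 were the closest pair, with a mean chi-square per gene of 6.72, where counting noise alone gives about 1. The other pairs stood at 21.9 to 27.5, so the libraries differed by more than counting noise.

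The shared chain Il2rg (ENSMUSG00000031304.18, chromosome X, 101264378 to 101268255, mm10) stood above every other member. It was at 1642, 1712, 1304 and 1079 TPM in libraries 1 to 4, a mean of 1434 ± 296 (SD, n = 4). Libraries 1 and 2 were high and library 4 was low. TPM is corrected for length, so levels of different genes can be set side by side. Il2rg ranked at place 80 among 22015 protein-coding genes outside the mitochondrial genome, counted from the highest mean TPM.

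Among the chains that pair with it, Il2rb (ENSMUSG00000068227.9, chromosome 15, 78479256 to 78495271) led, with 459, 392, 324 and 358 TPM, 383 ± 57.6 (SD, n = 4). Library 1 was the highest and library 3 the lowest. Il7r (ENSMUSG00000003882.5, chromosome 15, 9505788 to 9530176) was at 139, 115, 111 and 130.5 TPM, 124 ± 13.4 (SD, n = 4). Its libraries lay close together, within 1.26-fold.

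Il21r (ENSMUSG00000030745.9, chromosome 7, 125603429 to 125633570) was at 96.3, 114, 55.9 and 44.2 TPM, 77.5 ± 32.8 (SD, n = 4). Libraries 1 and 2 stood above libraries 3 and 4 with a gap between them. Il4ra (ENSMUSG00000030748.9, chromosome 7, 125552120 to 125579474) was at 102, 74.3, 41.4 and 63.1 TPM, 70.2 ± 25.3 (SD, n = 4). Here library 3, not library 4, was the lowest.

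Il9r (ENSMUSG00000020279.10, chromosome 11, 32187541 to 32200279), whose ligand is a type 2 and mast cell growth factor, was the lowest member. It was at 4.45, 2.44, 3.73 and 3.98 TPM, 3.65 ± 0.86 (SD, n = 4), from 60 to 98 counts a library. Of the alpha chains that do not signal themselves, Il2ra (ENSMUSG00000026770.5, chromosome 2, 11642807 to 11693193) was at 214, 199, 198 and 205 TPM, 204 ± 7.31 (SD, n = 4). Il2ra had the narrowest range of the 8, with a highest library 1.08-fold above the lowest. Il15ra (ENSMUSG00000023206.16, chromosome 2, 11705290 to 11734317) was at 23.1, 28.3, 27.8 and 26.6 TPM, 26.5 ± 2.31 (SD, n = 4), from 200 to 297 counts. Library 1 was its lowest library, unlike most other members.

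**Figure D1:**
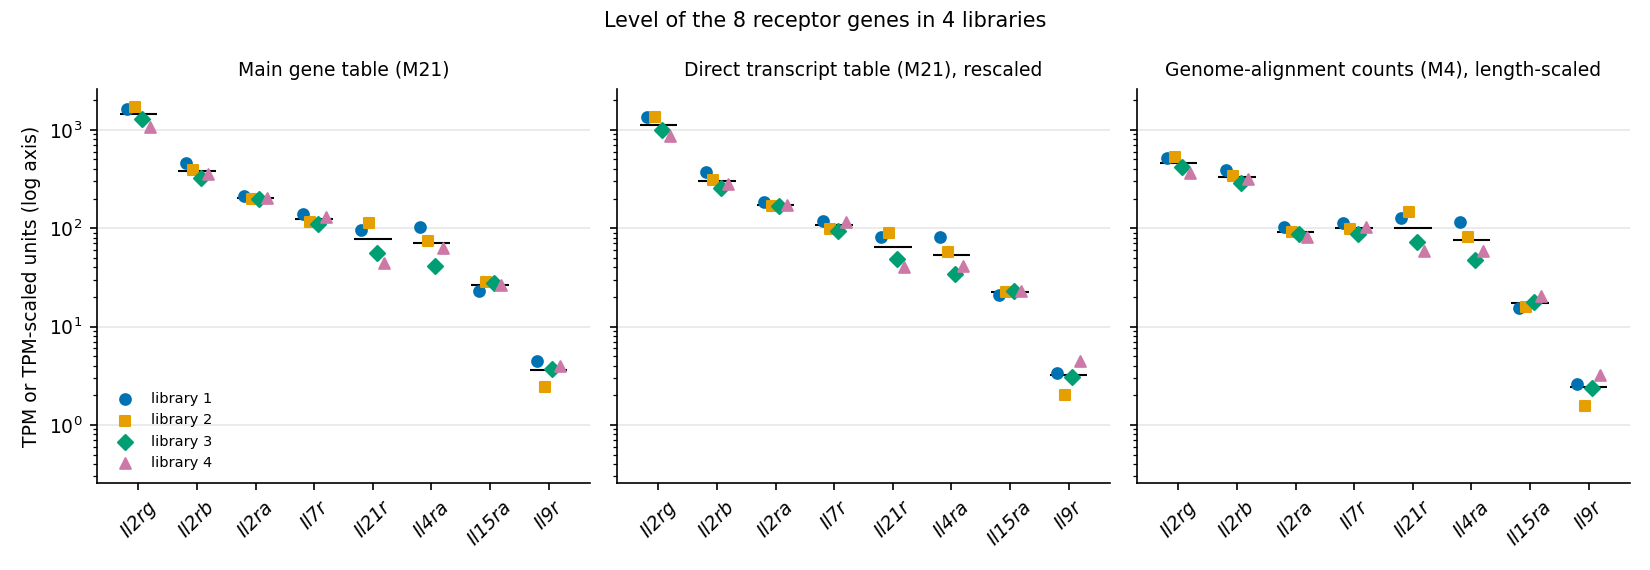
Level of each receptor gene in libraries 1 to 4 (points) with the mean (bar), on a log axis, in the main gene table (TPM), in the direct transcript table rescaled to the same total over coding genes, and in genome-alignment counts per length scaled to the TPM total. Il2rg is the highest in each panel and Il9r the lowest, while Il2rg and Il2ra sit lower in the genome-alignment counts.

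The order from high to low was Il2rg, Il2rb, Il2ra, Il7r, Il21r, Il4ra, Il15ra and Il9r. Neighbours were compared within each library as differences of log2(TPM + 0.1), a scale that understates differences of low genes, and called beyond their spread where all 4 libraries had the same sign and the mean was over 2 SD. The rule was met by 5 of the 7 steps: Il2rg over Il2rb by 1.89 (SD 0.23), Il2rb over Il2ra by 0.90 (SD 0.17), Il2ra over Il7r by 0.72 (SD 0.11), Il4ra over Il15ra by 1.34 (SD 0.64) and Il15ra over Il9r by 2.85 (SD 0.47). The step from Il7r to Il21r was 0.77 (SD 0.66) and that from Il21r to Il4ra 0.11 (SD 0.51), so neither exceeded its spread. Two-sided exact sign-flip permutation tests gave p = 0.13 for 6 steps, the smallest that 4 libraries allow, and 0.75 for Il21r against Il4ra. No step could therefore pass 0.05.

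The step from Il4ra to Il15ra no longer exceeded 2 SD without library 2 (1.32, SD 0.78) or without library 4 (1.37, SD 0.78), nor in the direct table (1.18, SD 0.6). The direct table otherwise gave the same order, with Il2rg at 1134 ± 243 and Il9r at 3.24 ± 1.02 (SD, n = 4) after rescaling. The place of Il2ra depended on the quantification. In whole-number counts from a genome alignment on an older annotation (GENCODE M4), scaled per length, Il2ra stood at 90.5 ± 8.49 and Il7r at 100.4 ± 10.2 (SD, n = 4), a log2 difference of -0.15 (SD 0.14). Il21r, at 102 ± 43.1 on that scale, also had a higher mean than Il2ra, which moved from the third place to the fifth. Il2rg stayed first in the M4 counts, but its step over Il2rb shrank to 0.46 (SD 0.18).

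The gamma chain was set against the summed TPM of the 5 chains it pairs with, Il2rb, Il7r, Il4ra, Il9r and Il21r. The partners summed to 801, 697, 535 and 599.7 TPM in libraries 1 to 4. Il2rg exceeded that sum 2.05, 2.46, 2.44 and 1.8-fold, with a mean of 2.19 ± 0.318 (SD, n = 4). Every library of the main table thus held more gamma chain RNA than RNA of its partners together. Il2rb made up 58.4 ± 1.98% of the partner sum, Il7r 19.1 ± 2.55%, Il21r 11.5 ± 3.72%, Il4ra 10.4 ± 2.06% and Il9r 0.567 ± 0.156% (SD, n = 4).

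This excess was not present in the M4 counts, where the ratio was 0.696, 0.794, 0.842 and 0.678, a mean of 0.753 ± 0.0785 (SD, n = 4). In the direct transcript table, made from the reads and an index, it was 2.12 ± 0.279 (SD, n = 4), close to the main table. The lower M4 ratio went with Il2rg itself: its M4 counts were 5731, 6565, 4975 and 3160, against 15798, 18003, 13445 and 7809 expected counts. On the log2(CPM + 1) scale, with CPM over genes in both tables, Il2rg lay -1.54 (SD 0.07) and Il2ra -1.08 (SD 0.05) from the main table.

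The other members lay between -0.50 and 0.48, the last being Il21r, and the median over 10049 genes was 0.15 with quartiles of -0.39 and 0.53. Of the 8 receptors, 2 were at least 1 apart on that scale, beside 13.4% of all genes compared. Il2rg lies within the same-strand gene Gm20489, and Il2ra overlaps the same-strand gene Gm37881. Gm20489 had 0 counts in both gene tables in each library, and Gm37881 had 56 to 87 expected counts. The part of these overlaps in the gap between tables was not tested.

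Each receptor's share of counts was then compared between the 4 libraries by fitting 1 Poisson rate per gene on TMM-scaled sizes and testing its departure by likelihood ratio, with Benjamini-Hochberg adjustment over all genes. All 8 receptors were called at 0.05, beside 68.4% of the 13045 genes tested and 95.8% of the 1725 genes of 1000 or more counts on average. The count of 8 is therefore near what counts of this depth give anyway. The receptors' highest library exceeded the lowest by a median of 1.5-fold in TPM, and all tested genes by 1.54-fold. Il21r and Il4ra had the widest ranges, 2.57 and 2.47-fold.

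Il21r was at 163, 221, 94.1 and 73.9 TMM-scaled CPM in libraries 1 to 4 (chi-square 807, adjusted p = 1.5e-172). Il4ra was at 306, 246, 124 and 155 on the same scale (chi-square 913, adjusted p = 2.1e-195). Il2rg was at 1746, 2028, 1381 and 1136, with the largest chi-square of the 8 receptors, 2388. Il2ra, nearly level in TPM, ran from 501 to 612 TMM-scaled CPM (adjusted p = 3.2e-31), with libraries 1 and 2 above libraries 3 and 4.

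The calls of Il2rg, Il2rb, Il2ra, Il4ra and Il21r held when each library was left out in turn. Il7r (adjusted p = 4.6e-17) lost its call without library 3 (adjusted p = 0.345). Il15ra (adjusted p = 0.0046) lost it without library 1 (adjusted p = 0.894), and Il9r (adjusted p = 0.04) without library 2 (adjusted p = 0.875). Il9r also passed 0.05 by little and stood at 0.0508 where genes down to a mean count of 1 were tested.

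Markers of B cells, which also express the interleukin-4 and interleukin-21 receptors, were set beside these values. All 10 were called in the same test, in which 68.4% of all genes were called. Their summed TPM was 215, 142, 97.7 and 175 in libraries 1 to 4. Of the 10, 1 reached 10 TPM in every library and the median was 8.14 TPM. The sum therefore need not be the course of each marker. Il4ra and the B cell sum were both highest in library 1 and lowest in library 3, but libraries 2 and 4 stood in the opposite order. Il21r was highest in library 2. The part of B cell RNA in these differences was not tested, nor that of the erythroid RNA of library 1. Without library 1, Il4ra ran from 41.4 to 74.3 TPM, Il21r from 44.2 to 114 and the B cell sum from 97.7 to 175. Both receptors stayed called, beside 54.4% of all genes tested without that library.

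**Figure D2:**
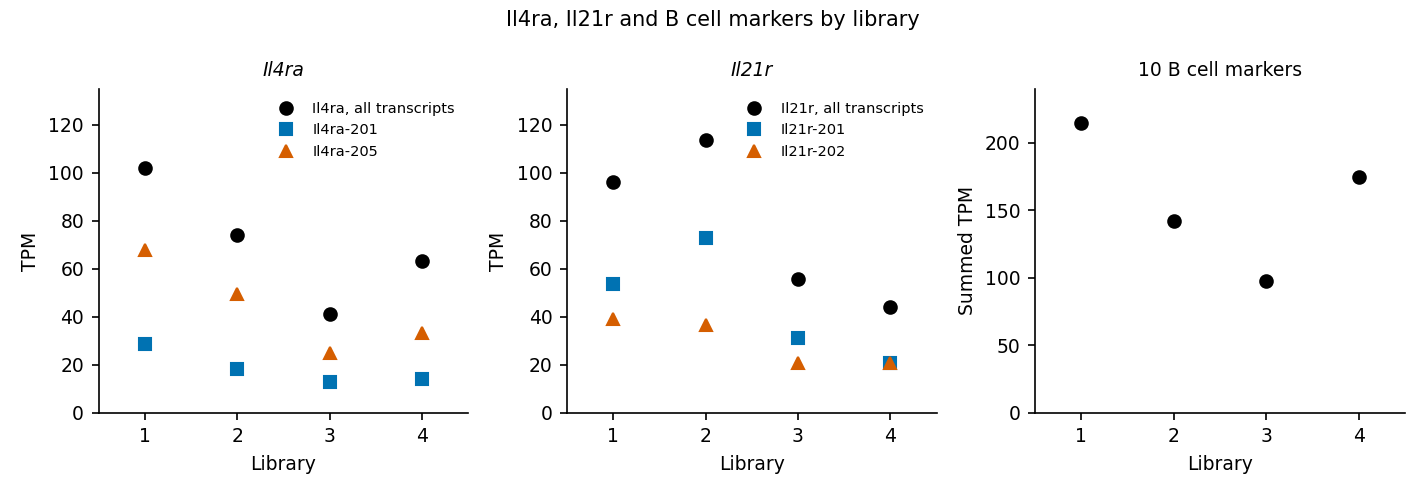
TPM of Il4ra and Il21r (black) and of their leading transcripts (blue and orange) in libraries 1 to 4, and the summed TPM of 10 B cell markers. Il4ra is lowest in library 3, at 41.4 TPM, as is the B cell sum, at 97.7, while Il21r is lowest in library 4.

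For each receptor, the genes with the most similar course over the libraries were sought by the root mean square (RMS) difference of log2(TPM + 0.1), centred on each gene's mean, among genes of 100 or more counts on average. With 4 points this describes the libraries and says nothing of shared function or control. Nearest to Il4ra was H2-Eb1, an MHC class II gene of antigen-presenting cells, at 108, 82.7, 43.7 and 70.3 TPM and an RMS difference of 0.0363. Next came Tsc22d3, a glucocorticoid-induced gene, at 0.0454. Only 8 of 8339 genes lay within 0.1 of Il4ra. This likeness rests in part on library 4, where Il4ra stood at 63.1 TPM. Of these, 13.9 TPM were in the partial transcript Il4ra-202, from 24.3 estimated counts. In the M4 counts scaled per length, Il4ra was at 48.1 and 58.7 in libraries 3 and 4, against 41.4 and 63.1 TPM. The likeness was not computed in other tables or units.

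Il21r had 1 such gene, the transcription factor gene Usf1 (0.0825), followed by Slc5a6, a vitamin transporter gene (0.102). The flatter members had many near neighbours: 1230 genes lay within 0.1 of Il2ra, led by Mrps17 (0.0104) and Btd (0.0109), and 640 within 0.1 of Il15ra, led by Hddc2 (0.0119) and Rps16-ps2 (0.0142). Il2rb was nearest to Spryd4 (0.0134) and Mybbp1a (0.0139), Il2rg to Dhx35 (0.0119) and Pglyrp2 (0.014), Il7r to Eif4e (0.0118) and Gm12250 (0.0137) and Il9r to Ube3a (0.0196) and Acaa1a (0.0243).

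Annotated transcripts split the receptors into those led by a full-length membrane form and those that were not. The 2 members with the largest share of TPM in frames that lack the hydrophobic stretch were Il4ra and Il21r. The sequences at which their frames part are printed because they carry that difference. Shared coding bases are in lower case, and the bases that follow in each transcript are in capitals.
Il4ra-201: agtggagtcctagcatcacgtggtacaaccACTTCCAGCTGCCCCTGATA
Il4ra-205: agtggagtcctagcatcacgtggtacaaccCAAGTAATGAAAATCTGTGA

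Il4ra-201 is the full-length transcript, with 810 residues. Il4ra-205 carries an exon that Il4ra-201 lacks, of 114 bp at chr7:125571934-125572047 on the plus strand, in which 17 coding bases are followed by the stop codon TGA. Its frame shares 224 whole codons with Il4ra-201 and ends at residue 230, behind the WSXWS motif and before the hydrophobic stretch of residues 234 to 252. The annotation types it as a target of nonsense-mediated decay, the pathway that degrades mRNAs with an early stop. As background, mice are known to make a secreted interleukin-4 receptor alpha from mRNA with an extra exon ahead of the membrane-spanning part.

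**Figure D3:**
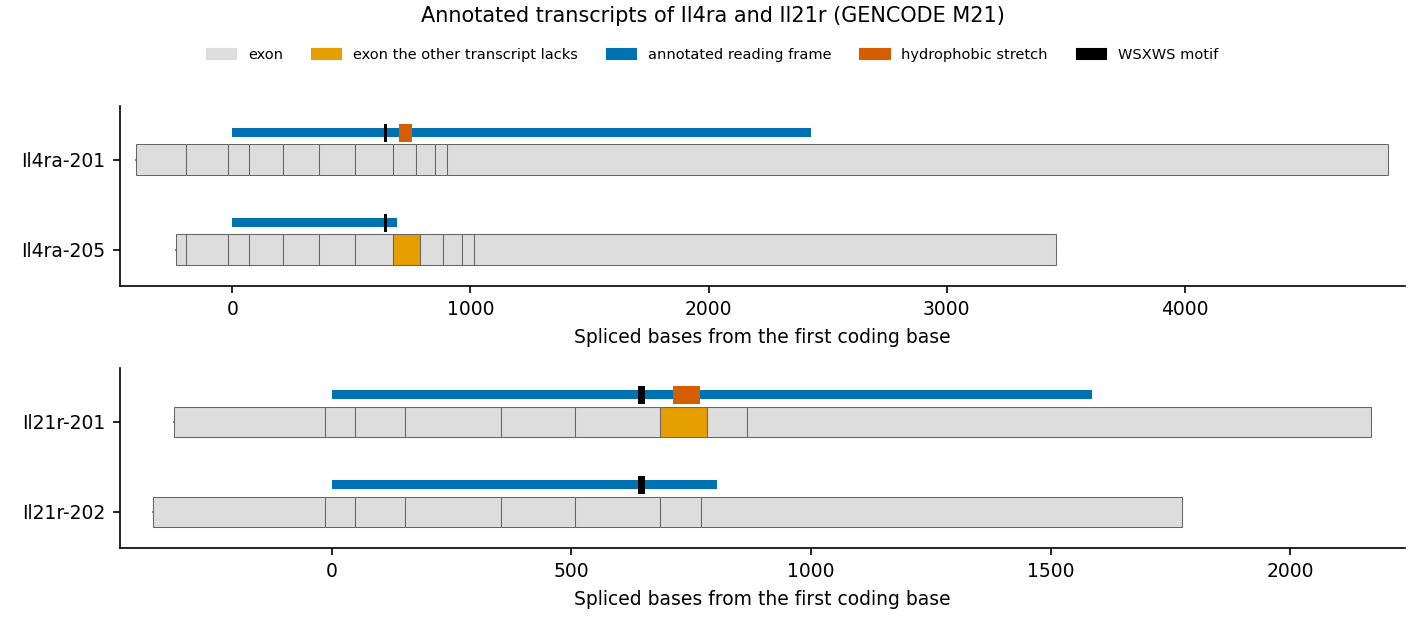
Spliced maps of 4 annotated transcripts in bases from the first coding base, with exons as boxes, the reading frame as a blue bar, the hydrophobic stretch in red and the WSXWS motif in black. The exon that sets each pair apart is orange: Il4ra-205 gains an exon of 114 bp and its frame stops in it, and Il21r-202 lacks the exon of 97 bp with the hydrophobic stretch.

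Il4ra-205 was estimated at 68.0, 49.5, 25 and 33.3 TPM in libraries 1 to 4, and Il4ra-201 at 28.9, 18.4, 12.8 and 14.2. The transcript without the membrane part was above the full-length form in every library. Il4ra-205 held 66.6, 66.5, 60.5 and 52.8% of Il4ra TPM, 61.6 ± 6.52% (SD, n = 4), and Il4ra-201 held 26.6 ± 3.71%. In the direct table the shares were 78.9 ± 3.95% and 14.3 ± 1.9% (SD, n = 4). In library 4, 22.1% of Il4ra TPM went to Il4ra-202, a partial transcript of 491 bp with 24.3 estimated counts and a posterior SD of 8.21 counts. As shares of expected counts, Il4ra-205 held 59.9 ± 3.05% (SD, n = 4).

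These are estimates, since most bases are shared. Il4ra-205 also ends earlier than Il4ra-201, with a last exon of 2444 bp against 3951 bp, and starts later, so its share cannot be assigned to the extra exon alone. The posterior SD of its count was 61.1 in library 1, on 1695 estimated counts. The exon lies within the antisense gene Gm44876, which had 0 expected counts in all 4 libraries. The strand setting is not given in the sources used, so reads from the gene and its antisense partner cannot be told apart.

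Il4ra was the sole receptor in the main table whose leading transcript was of a type other than protein_coding, beside 15.1% of 9953 coding genes with at least 2 transcripts. A decay-type transcript led in 311 of those genes, 3.12%. In the direct table, and by expected counts, Il15ra joined it. Coding transcripts held 32.5 ± 8.44% of Il4ra TPM (SD, n = 4), where the median over those genes was 83.1% with quartiles of 58.7% and 96.9%.

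The Il21r exon of 97 bp at chr7:125629738-125629834, plus strand, holds all 57 bases that encode the hydrophobic stretch, shown in capitals.
Il21r-201 exon: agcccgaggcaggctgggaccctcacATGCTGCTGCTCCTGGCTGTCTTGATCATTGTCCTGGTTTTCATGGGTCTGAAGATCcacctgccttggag

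Il21r-202 lacks this exon. Its frame shares 228 whole codons with Il21r-201, then shifts and ends at TAG after 268 residues, against 529 in the full-length form. The annotation types it as protein_coding. Il21r-202 was at 38.9, 36.8, 20.6 and 20.7 TPM, and Il21r-201 at 53.7, 72.8, 31.2 and 20.7. The full-length form was higher in libraries 1 to 3 and level with Il21r-202 in library 4. Il21r-202 held 40.5, 32.3, 36.8 and 46.9% of Il21r TPM, 39.1 ± 6.13%, and 32.1 ± 4.67% in the direct table (SD, n = 4). Its ends also differ from those of Il21r-201, by a last exon of 1004 bp against 1302 bp, so this share too does not rest on the skipped exon alone.

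Frames that hold the hydrophobic stretch took 26.6 ± 3.71% of Il4ra TPM, 55.6 ± 7.02% of Il21r and 33 ± 7.91% of Il15ra (SD, n = 4). They took 75.9 ± 5.19% of Il2ra, 76.2 ± 2.13% of Il7r, 80.4 ± 2.43% of Il2rg, 88.3 ± 13.7% of Il9r and 100.0% of Il2rb. The remainder differed in kind between the receptors. In Il7r it was 23.8 ± 2.13% in transcripts with no annotated frame, mostly Il7r-202 at 18.6 ± 2.37%. These are shorter than Il7r-201 and took 9.4 ± 1.21% of Il7r counts. In Il2rg the remainder was a retained intron transcript, Il2rg-204, at 8.13 ± 2.09%, with smaller shares for Il2rg-202 and Il2rg-203.

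**Figure D4:**
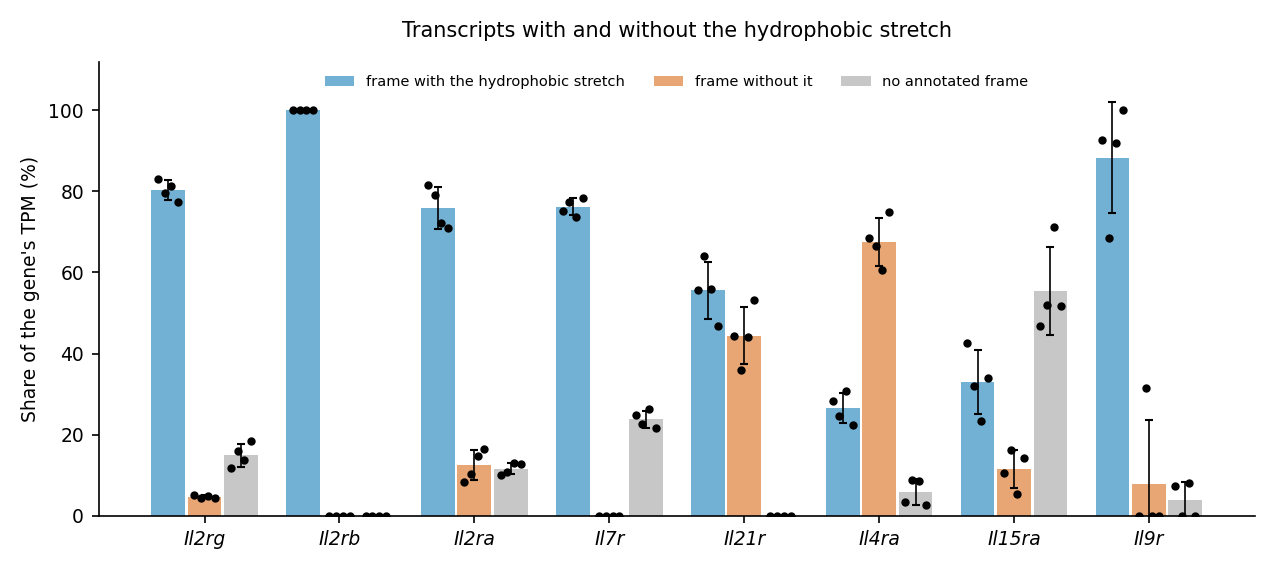
Share of each receptor's TPM in transcripts whose reading frame holds the hydrophobic stretch, whose frame lacks it, and that have no annotated frame. Bars are means, error bars the SD over 4 libraries and points the libraries. By mean, Il4ra is the sole member whose largest class is the frame without the stretch, at 60.5 to 74.9%. The 74.9% of library 4 includes 22.1% in the partial transcript Il4ra-202. Il4ra-205 alone held 52.8 to 66.6%, lowest in library 4.

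Il2rb had 2 transcripts with the same coding sequence, which differ in the exon they start from and in their 3′ ends. Il2rb-201 held 75.6 ± 4.08% and Il2rb-202 24.4 ± 4.08% (SD, n = 4), with Il2rb-202 at 29.9% in library 1 and between 21 and 25.2% in the others. Il2rb-202 is the shorter and took 12.2 ± 2.4% of Il2rb counts. Il2ra-201, the full-length form, held 75.9 ± 5.19% of Il2ra TPM, with 81.6, 79.0, 72.3 and 70.9% in libraries 1 to 4. Il2ra-202, a frame of 44 residues, held 12.5 ± 3.79%, and the retained intron Il2ra-203 11.6 ± 1.42%. Both are short, and they took 3.16 ± 1.12% and 1.15 ± 0.199% of Il2ra counts.

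Il15ra was the most divided, over 18 annotated transcripts. Il15ra-201, the full-length form, held 22.6 ± 5.39% and the retained intron Il15ra-208 21.1 ± 5.37% (SD, n = 4), and their order turned without library 1 or library 2. Retained intron transcripts took 46.7 ± 8.79% of Il15ra TPM, on 200 to 297 counts a library. Il9r-205, a coding form with a long 3′ end, led Il9r at 58.9 ± 12.9%, but Il9r-204 held 40.8% in library 1 and was at 0 in the other libraries, so the split of 60 to 98 counts was not stable.

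Transcript use was tested between libraries by a chi-square test of homogeneity of expected counts within each gene. Il9r had fewer than 2 transcripts of 10 or more counts on average and was not tested. The other 7 receptors were all called, beside 83.1% of 7170 genes, so their calls are near the background. In the direct table all 8 were tested and Il9r was the 1 not called, beside 84.5% of 8344 genes called. Cramér's V, an effect size from 0 to 1, was 0.243 for Il15ra, above 81.0% of genes tested, and 0.0351 to 0.0856 for the other 6, below the median of 0.123. Il21r had 0.0856 (adjusted p = 5.8e-13) and Il4ra 0.0603 (adjusted p = 3.5e-09). The test treats estimated transcript counts as counts and so covers counting error only.

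Of 38 further genes of the pathway, 28 reached 1 TPM in every library and 23 reached 10 TPM. The split followed role. Of the 8 ligands, 1 reached 1 TPM in all libraries of the main table and none 10 TPM. Il4, the type 2 cytokine, was at 14.3 ± 5.77 TPM (SD, n = 4), with 12, 7.29, 20.1 and 17.8 TPM from 23 to 64 counts. In the M4 counts scaled per length, Il4 stood above 10 in every library, at 17.2, 11.6, 39.4 and 28.1, from 44 to 143 counts. Il21 was at 3.66 ± 2.18 TPM, with 11 to 61 counts, and lowest in library 2, at 0.62 TPM, where its receptor gene was highest.

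Il2 was at 0.45, 1.08, 1.14 and 1.42 TPM from 3 to 8 counts a library. Il15 (0.475 ± 0.674 TPM) and Il7 (0.402 ± 0.233) were near the limit of detection. Il13 had 3 counts in library 2 and 0 in the others, and Tslp 1 count in library 4 and 0 in the others. Il9 was without a count in every library, and a count of 0 allows up to 3 in each. Other partner chains were also low: Crlf2, which joins Il7r in the TSLP receptor, was at 2.43 ± 0.764 TPM, Il13ra1, which joins Il4ra, at 0.712 ± 0.424, and Il13ra2, a decoy receptor, at 0 expected counts in all libraries.

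All 9 kinases and STATs reached 10 TPM in every library. Jak1, the kinase of the partner chains, was at 265 ± 51 TPM (SD, n = 4) and Stat6, which interleukin-4 activates, at 171 ± 26.9. Jak3, the kinase of the gamma chain, was lower, with 20.8, 11.5, 17.1 and 11.4 TPM, 15.2 ± 4.6. Jak2 was at 14.2 ± 3.57 TPM. Stat5a, at 42.8, 25.4, 23.7 and 24.7 TPM, and Stat5b, at 41.9, 24.5, 25.5 and 25.4, act behind the interleukin-2 receptor, and each had library 1 high and the others close together. Their means were 29.2 ± 9.14 and 29.3 ± 8.37 TPM.

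**Figure D5:**
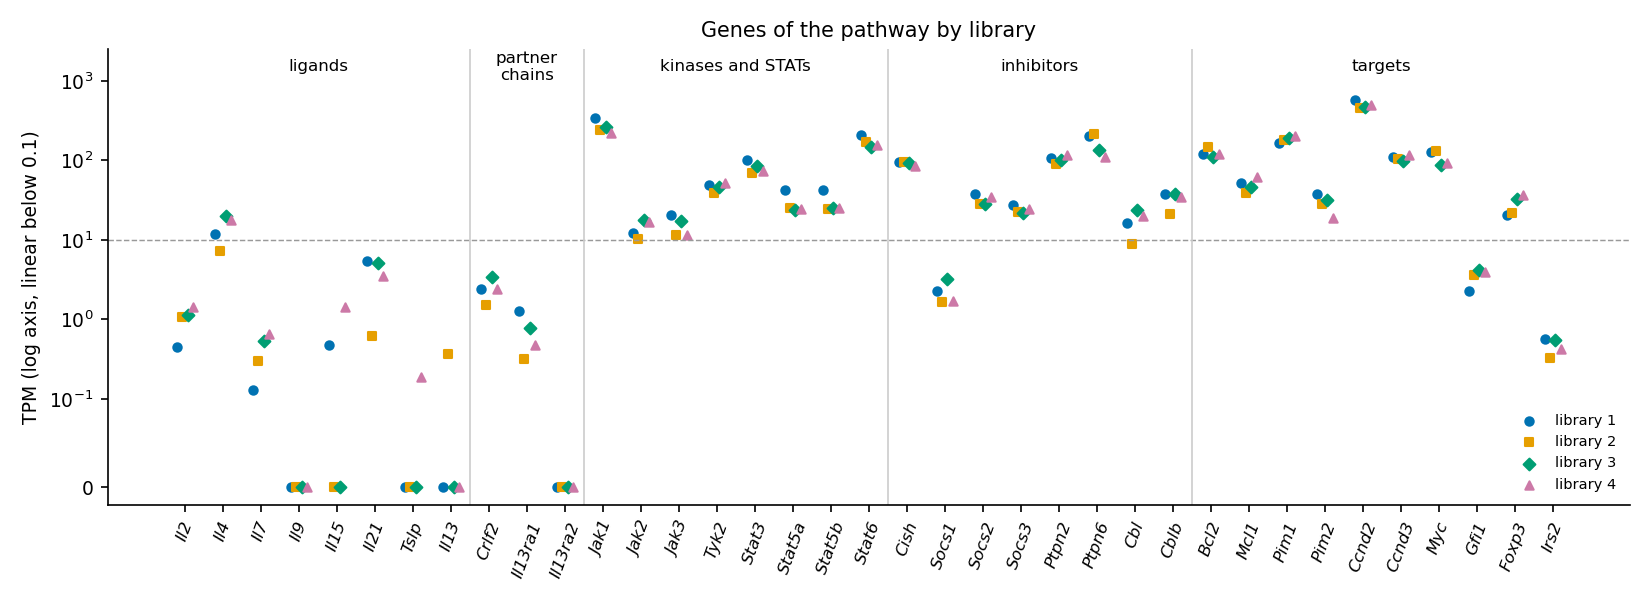
TPM of 37 pathway genes in libraries 1 to 4, by role, on a log axis that is linear below 0.1, with a dashed line at 10 TPM. The 8 kinases and STATs shown lie above the line in all libraries, while 7 of the 8 ligands fall below 1 TPM in at least 1 library.

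Of 8 inhibitors, 6 reached 10 TPM in every library. The phosphatase genes Ptpn6 and Ptpn2 were at 165 ± 51.1 and 103 ± 10.9 TPM (SD, n = 4), and Cish, which STAT5 induces, at 92.9 ± 5.06. The ubiquitin ligase genes Cblb and Cbl were at 32.9 ± 7.88 and 17.1 ± 6.32 TPM. Socs2 and Socs3 were at 32.2 ± 4.79 and 24.1 ± 2.53, while Socs1 was at 2.22 ± 0.751. Ptpn6 had libraries 1 and 2 (204 and 213 TPM) above libraries 3 and 4 (133 and 110.0), the same side as Il2rg and Il21r.

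Among 10 target and survival genes, 8 reached 10 TPM in all libraries. The cyclin gene Ccnd2 was at 499 ± 49.8 TPM, the kinase gene Pim1 at 186 ± 16.9 and the survival gene Bcl2 at 125 ± 14.5 (SD, n = 4). At the low end of the main table were Foxp3, the Treg lineage factor, at 27.8 ± 8.01, Gfi1 at 3.5 ± 0.849 and Irs2 at 0.467 ± 0.113. The place of Foxp3 depended on the quantification. In the M4 counts scaled per length it stood at 52.1 ± 15.2, above Bcl2 at 44.9 ± 6.02 and Pim1 at 36.6 ± 9.08 (SD, n = 4). Ccnd2 stayed the highest there, at 236 ± 24.7, and Gfi1 and Irs2 the lowest. In the test between libraries, 2 of 2 ligands with enough counts, 1 of 2 partner chains, 9 of 9 kinases and STATs, 8 of 8 inhibitors and 9 of 10 targets were called, beside the 68.4% of all genes.

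For comparison, 28 other cytokine receptor genes had a median of 13.4 TPM and the 8 gamma chain family genes one of 101 TPM. Of the 28, 14 reached 10 TPM in every library, against 7 of the 8 and 28.1% of protein-coding genes outside the mitochondrial genome. Il27ra, a gp130 partner, was the highest of them at 266 ± 12.9 TPM, followed by Ifngr1 at 206 ± 48.9 and Il1r2, a decoy receptor, at 101 ± 51.3 (SD, n = 4). Lifr (0.133 ± 0.152), Il22ra2 (0.0575 ± 0.0665) and Osmr (0.0325 ± 0.065) were the lowest.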

How the data were processed

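PolyA-selected RNA-seq of 4 libraries was used. Per the file headers, the deposited gene and transcript tables hold expected counts, TPM, FPKM, the percent of a gene's TPM per transcript and a posterior SD. Notes that the submitters placed beside the files give mm10, GENCODE M21 and an alignment to the transcriptome. A deposited transcript table holds estimated counts and TPM made directly from the reads, and a deposited gene table holds whole-number counts from a genome alignment with GENCODE M4, per the same notes. Which programs and strand setting were used is not given in the sources.

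Expected counts were rounded. Rows outside the annotation held 0.133 to 0.504% of counts and were left out. TMM factors came from edgeR 4.0.16, alternative size factors from DESeq2 1.42.0, and tests from Python 3.11.15 with scipy 1.17.1. The tests were checked on data simulated with counting noise alone. That check does not cover the wider differences between these libraries or the error of estimated transcript counts. Adjustment was by Benjamini-Hochberg over all genes tested. M4 counts, matched for 22195 of 22457 rows, were divided by effective length and scaled to the TPM total. In the direct table the pseudogene Gm29013 took 21.9% of TPM, so levels were also rescaled to the coding total of the main table, an alternative chosen after seeing the data. Shares within a gene need no rescaling. The hydrophobic stretch is the window of 19 residues with the highest mean Kyte-Doolittle value behind residue 40 of the longest complete frame.

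The 8 members, the gene lists and the markers were chosen with earlier results of these data known. The text names every receptor and, in each list, the 3 highest and 3 lowest genes by mean TPM (every gene in lists of 8 or fewer), with the 2 genes of most similar course per receptor. Of the genes this rule names, 1 is not reported here; Ptpn6, Stat5a and Stat5b are described further after their values were seen. Alternatives were other tables, units, scalings, pseudocounts, count minimums and leaving out each library.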

Additional observations from a re-analysis of the deposited data

Results flagged for a closer look

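Of 54 values checked over the 4 libraries (the receptors, their leading transcripts and the pathway genes), 4 had 1 library far from the others, where the gap to the nearest library divided by the whole range exceeded Dixon's critical value for 4 values. Chance flags about 1 in 20 such groups of values. Stat5a had a quotient of 0.91 and Stat5b 0.942, both with library 1 high, at 42.8 against 23.7 to 25.4 TPM for Stat5a and 41.9 against 24.5 to 25.5 TPM for Stat5b. Il13 and Tslp had a quotient of 1.0, since 3 libraries were at 0, with 0.37 TPM from 3 counts in library 2 for Il13 and 0.19 TPM from 1 count in library 4 for Tslp. No receptor gene was among them.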

How the results depend on the processing

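No paired analysis was possible because there is 1 group, with no second group that shares its replicate numbers. With M4 counts the ratio of Il2rg to its partners moved from 2.19 to 0.753, and the step from Il2rg to Il2rb from 1.89 to 0.46. The step from Il2ra to Il7r reversed, from 0.72 to -0.15, with Il21r above Il2ra as well. The cause was not tested. In the direct table the share of Il4ra-205 rose from 61.6 to 78.9% and that of Il21r-202 went from 39.1 to 32.1%, and 2 receptors rather than 1 had a leading transcript of a type other than protein_coding, as also by shares of expected counts. With a mean transcript count of at least 50, transcript use was called in 3407 genes against 5961, of fewer genes tested (3928 against 7170). Without each library in turn, the ratio was 2.1 to 2.31, genes called between libraries 7108 to 8132 (54.4 to 61.8% of those tested each time, against 8925 or 68.4% with all 4 libraries), receptors called 7 to 8, steps beyond their spread 4 to 5, leading transcripts of other types 1 to 2, the Il4ra-205 share 60.0 to 64.6% and the Il21r-202 share 36.5 to 41.4%. Pathway genes at 1 TPM were 28 to 29 and at 10 TPM 23 to 25. The DESeq2 size factors called 8911 genes and library totals 9021, each with all 8 receptors. Il9r, on 60 to 98 counts, and Il15ra, on 200 to 297, are the members that depth limits most.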
